A study of Mus musculus with 4 samples.

Results

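The FGF4 and ERK pathway genes described here are Fgf4, Fgfr1, Fgfr2, Grb2, Spry2, Spry4, Dusp6, Egr1, Etv4 and Etv5, chosen by their symbols in a deposited expression table. All 10 were found among its 24026 genes. PolyA-enriched RNA was sequenced in F123-ESCs, a male hybrid line of mouse embryonic stem cells with maternal S129 and paternal CAST chromosomes, so that each autosomal gene has a copy of either strain. There were 4 libraries of a single group, untreated cells of genotype S129/CAST, named replicates 1 to 4. The cells were grown on feeder fibroblasts in medium with 15% KSR and 1000 U/ml LIF, were passaged at least 2 times without feeders, and were harvested about 48 h after plating. No MEK inhibitor is listed for this medium. All libraries come from 1 cell line, and the labels do not say that they were separate cultures, so the spread between them may be technical.

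FGF4 is a growth factor that embryonic stem cells secrete and also sense. With heparan sulphate as a cofactor it binds FGF receptors, which recruit GRB2 and the exchange factor SOS through the docking protein FRS2, and SOS switches on RAS, RAF, MEK and ERK in turn. ERK moves cells out of naive pluripotency and, in the embryo, directs inner cell mass cells toward primitive endoderm. It also induces its own brakes, among them the Sprouty proteins and the phosphatase DUSP6, and the transcription factors EGR1, ETV4 and ETV5.

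The values are RPKM, which are reads divided by the gene length and by the total of a library's reads on that allele, given per allele and library. Differences between values are given as differences of log2(RPKM+0.1), named log2 differences below, and they are understated where values are low. Only reads that cover a SNP between the strains can be assigned to an allele, so a read without such a SNP enters none of them. The density of SNPs in each gene was not used here. Levels of different genes, and their order, therefore also depend on that density. The steps between the values gave back the whole reads behind 20134 of the 20243 genes above 0. S129 and CAST reads together came to 34120416 to 56627972 per library, of which S129 held 50.8% to 51.0%. Markers of pluripotent cells were all above 1 RPKM (8 of 8, from 29.5 to 7111 RPKM). Of the 8 feeder fibroblast markers, 7 were at 1 RPKM or above, with a summed level of 181 to 227 RPKM over the libraries, or 26.6 to 32.7 RPKM per exon length. Of the 7 primitive endoderm markers, 4 were at 1 RPKM or above, with a summed level of 54.4 to 62.9 RPKM, or 16.3 to 18.7 RPKM per exon length. Of the 4 primed epiblast markers, 3 were at 1 RPKM or above, with a sum of 68.7 to 82.5 RPKM. Most of each of these 3 deposited sums came from 1 gene, Col1a2 at 166 RPKM, Dab2 at 44.2 RPKM and Dnmt3b at 71.2 RPKM. Per exon length these had 11.3, 3.87 and 58.7 RPKM. Neither neural marker reached 1 RPKM. None of these markers was at 0, and the part of such cells in the levels below was not tested.

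Fgf4 is, after Fgfr1, the member whose value depends most on the annotated transcripts. It lies on chromosome 7 from 144847367 to 144865243 (mm10, plus strand), and GENCODE M21 gives it 2 transcripts. Fgf4-201 has 3 exons and 3030 bases and starts at 144861386. Fgf4-202 has 395 bases, starts 14019 bp further upstream and shares 230 exonic bases with Fgf4-201. The RPKM of Fgf4 was made with the length of 395 bases. The 250 bases before the start of Fgf4-201 (RefSeq, GRCm38.p6, chr7:144861136-144861385, plus strand) are shown because they belong to the start that Fgf4-202 does not use. Capitals mark the GC box GGGCGG and overlapping copies of TATATA, each searched on both strands.

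Fgf4 promoter: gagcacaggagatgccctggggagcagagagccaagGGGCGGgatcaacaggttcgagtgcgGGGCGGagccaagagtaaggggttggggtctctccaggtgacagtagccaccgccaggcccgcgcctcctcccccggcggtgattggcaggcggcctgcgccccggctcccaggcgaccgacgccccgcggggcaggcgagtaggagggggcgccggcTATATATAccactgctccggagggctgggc

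The GC box letters stood in 32.7% and TATATA in 5.25% of the 32851 mouse promoter windows of the same length. The Fgf4 window had 71.2% G and C. Fgf4 is also known for an enhancer in its 3′ untranslated region, where SOX2 and OCT4 bind side by side. Letters of that kind, CTTTGTT and ATGCTAA separated by 3 bases, were found on the plus strand in exon 3 of Fgf4-201, in its untranslated part (chr7:144864390-144864414), and in no exon of Fgf4-202. Capitals mark both motifs.

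Fgf4 Sox and Oct letters: aactCTTTGTTtggATGCTAAtggg

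Fgf4, the ligand, had the highest deposited value of the 10 genes. On the S129 allele it measured 326, 356, 357 and 283 RPKM in replicates 1 to 4. On the CAST allele it measured 299, 347, 338 and 283 RPKM. The alleles overlapped, and replicate 4, the shallowest library, was lowest on both. The level, taken as the mean of both alleles, was 323.7 ± 32.2 RPKM (SD, n = 4 libraries) from 24413 reads. Computed with the 3195 bases of all annotated exons, the same reads gave 40.01 ± 3.98 RPKM (SD, n = 4). In a bulk sample, less RNA per cell and fewer cells that express a gene cannot be told apart, and this holds for each level below.

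The receptors came next in role but not in level. FGFR1 and FGFR2 are receptor tyrosine kinases, and FGFR1 is known as the main FGF receptor of naive embryonic stem cells. Fgfr1 (chromosome 8, 25513654 to 25575718, plus strand) measured 74.9, 82.0, 86.5 and 71.8 RPKM on S129 and 97.6, 115, 127 and 110 RPKM on CAST. CAST was higher in each library, and the alleles did not overlap. Its level was 95.6 ± 8.97 RPKM (SD, n = 4) from 8162 reads. This value was made with 453 bases, the first of 19 annotated transcripts, whereas the exons of Fgfr1 together cover 9875 bases and its longest transcript 5041. Per exon length the level was 4.38 ± 0.412 RPKM, and per longest transcript 8.59 RPKM. Gm16159, an antisense gene with 346 reads in all, overlaps 164 bases of the exons of Fgfr1.

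Fgfr2 (chromosome 7, 130162451 to 133123350, minus strand) was the lower of both receptors. It measured 4.14, 4.40, 4.64 and 3.95 RPKM on S129 and 6.01, 7.02, 7.38 and 5.88 RPKM on CAST. Each CAST value lay above each S129 value. The level was 5.43 ± 0.519 RPKM (SD, n = 4) from 4430 reads with a length of 4311 bases, and 2.27 ± 0.217 RPKM per exon length. Per longest transcript it was 5.28 RPKM. Fgfr1 was above Fgfr2 in each of the 4 libraries on both scales, and per exon length the log2 difference was 0.92 ± 0.053 (SD, n = 4, exact permutation of signs, two-sided, p = 0.125, below which 4 libraries cannot go). The exons of Fgfr2 share 314 bases with Ctbp2 on the same strand, so reads there are uncertain.

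Grb2, the adaptor that links receptors to SOS, was nearly without assigned reads. It lies on chromosome 11 (115644045 to 115708597, minus strand), and 5 reads in all were assigned to it. Replicates 1 and 4 were listed at 0 on both alleles, replicate 2 had 2 reads on each allele, and replicate 3 had 1 read on S129 and none on CAST. A count of 0 allows up to 3 reads, which for Grb2 is 0.0389 to 0.0669 RPKM over alleles and libraries, for counting error only. The 5 genes that start within 100 kb of it had 287 to 19729 reads and 0.778 to 46.4 RPKM. Transcripts of Grb2 match 2 processed pseudogenes, Gm12791 on chromosome 4 with 98.0% identity over 655 of 2709 bases and Gm13542 on chromosome 2 with 90.1% identity over 603 bases. The value therefore says that few reads were assigned to Grb2 by allele. Whether Grb2 RNA was scarce or its reads could not be assigned cannot be told apart here.

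**Figure D1:**
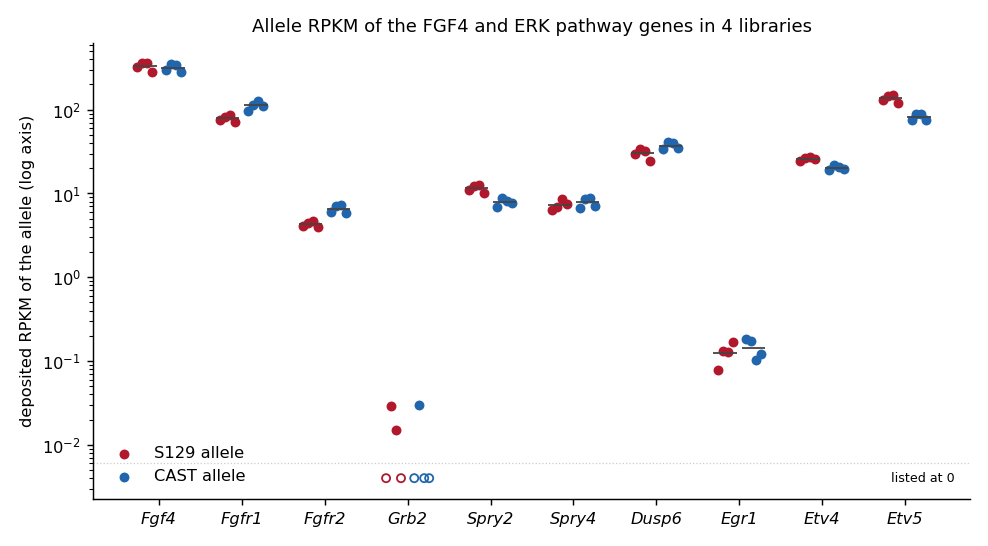
Deposited RPKM of each allele of the 10 genes, on a log axis, with red points for the S129 allele and blue points for the CAST allele in 4 libraries, short lines at the mean, and open points where a value is listed at 0. Fgf4 lies at 283 to 357 RPKM on either allele, Grb2 at 0 or a few hundredths of 1 RPKM, and red and blue points separate for Fgfr1, Fgfr2, Spry2, Dusp6, Etv4 and Etv5.

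The feedback inhibitors were all expressed, Dusp6 at several times the level of the Sprouty genes. SPRY2 and SPRY4 dampen signalling between the receptor and ERK, and DUSP6 removes phosphate from ERK itself. Spry2 (chromosome 14, 105891947 to 105896819, minus strand) measured 10.9, 12.4, 12.5 and 10.2 RPKM on S129 and 6.88, 8.88, 8.09 and 7.77 RPKM on CAST. Each S129 value exceeded each CAST value. Spry4 (chromosome 18, 38586247 to 38601415, minus strand) measured 6.33, 6.92, 8.54 and 7.40 RPKM on S129 and 6.71, 8.58, 8.87 and 7.07 RPKM on CAST. Its alleles overlapped, with CAST higher in 3 of 4 libraries.

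The level of Spry2 was 9.71 ± 0.903 RPKM (SD, n = 4) from 3859 reads, and that of Spry4 was 7.55 ± 0.920 RPKM (SD, n = 4) from 6532 reads. Spry2 has a single annotated transcript of 2087 bases, which is the length behind its RPKM. The 4587 bases behind the value of Spry4 matched no annotated transcript and were found by a search over lengths, and its exons cover 4755 bases. Spry2 was above Spry4 in each of the 4 libraries, with a log2 difference of 0.36 ± 0.10 (SD, n = 4, exact permutation of signs, two-sided, p = 0.125, the smallest possible). That order came from S129, where the means were 11.5 and 7.30 RPKM. On CAST the means of 7.90 ± 0.826 and 7.81 ± 1.08 RPKM (SD, n = 4 each) differed by less than their spread.

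Dusp6 (chromosome 10, 99263231 to 99267489, plus strand) measured 29.8, 33.6, 32.5 and 24.5 RPKM on S129 and 33.9, 41.1, 39.8 and 34.6 RPKM on CAST. CAST was higher in each library, and the lowest CAST value lay just above the highest S129 value. The level was 33.7 ± 3.66 RPKM (SD, n = 4) from 17942 reads, and 30.1 ± 3.27 RPKM per exon length. The 250 bases before its start (RefSeq, GRCm38.p6, chr10:99262981-99263230, plus strand) are shown because of the 6 members whose windows were read here, Dusp6 alone held the core CGGAAG of ETS-type sites, the kind that ETV4 and ETV5 bind. Both strands were searched. Capitals mark the core, which reads CTTCCG here because it lies on the opposite strand.

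Dusp6 promoter: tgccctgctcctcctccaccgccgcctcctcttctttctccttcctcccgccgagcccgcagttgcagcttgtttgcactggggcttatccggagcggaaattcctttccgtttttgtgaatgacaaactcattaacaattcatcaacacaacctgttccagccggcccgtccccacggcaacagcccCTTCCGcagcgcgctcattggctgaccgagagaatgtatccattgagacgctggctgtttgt

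These letters stood in 13.6% of the 32851 promoter windows, so finding them in 1 gene is no more than a description.

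The transcription factors spanned nearly 3 orders of magnitude. EGR1 is a zinc finger factor whose gene is switched on within minutes of ERK activation, and ETV4 and ETV5 are ETS factors of the PEA3 group whose genes follow sustained ERK signalling. Etv5 (chromosome 16, 22381309 to 22439719, minus strand) measured 131, 145, 149 and 122 RPKM on S129 and 76.2, 87.8, 88.5 and 76.1 RPKM on CAST. Each S129 value was far above each CAST value. With 83118 reads it was the best covered of the 10 genes, and its level was 109.4 ± 9.71 RPKM (SD, n = 4), or 106.0 ± 9.40 RPKM per exon length. Gm4798, a processed pseudogene on chromosome 10, matches 1700 of the 3975 bases of Etv5 with 98.6% identity, so part of its reads is uncertain.

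Etv4 (chromosome 11, 101769742 to 101785371, minus strand) measured 24.4, 26.2, 27.1 and 25.6 RPKM on S129 and 19.2, 21.7, 20.98 and 19.7 RPKM on CAST. The alleles did not overlap. Its level of 23.1 ± 1.07 RPKM (SD, n = 4) rested on 10414 reads and came to 17.7 ± 0.820 RPKM per exon length. Etv5 thus had the higher value of these related factors on either scale, with SNP density not taken into account.

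Egr1 (chromosome 18, 34859823 to 34864984, plus strand) had few assigned reads. It measured 0.0775, 0.130, 0.127 and 0.167 RPKM on S129 and 0.184, 0.172, 0.104 and 0.120 RPKM on CAST. The alleles overlapped, S129 being higher in replicates 3 and 4 and lower in replicates 1 and 2. These values rest on 114 reads, 52 of S129 and 62 of CAST, with 9 to 23 on an allele of a library. In replicate 4 on CAST, where reads were fewest, the exact 95% Poisson interval was 0.0549 to 0.228 RPKM, for counting error only. The related genes Egr2 and Egr3, chosen after their values were seen, had 0.0601 and 0.0141 RPKM.

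The order of the deposited levels was Fgf4, Etv5, Fgfr1, Dusp6, Etv4, Spry2, Spry4, Fgfr2, Egr1 and Grb2. Each of the 9 neighbouring pairs stood in this order in 4 of 4 libraries (exact permutation of signs, two-sided, p = 0.125 for each, also after Benjamini-Hochberg adjustment over the 9 pairs, the smallest possible). The ranges of Etv5 and Fgfr1 over the libraries overlapped, since their log2 difference was only 0.19 ± 0.068 (SD, n = 4). Their order also turned between the alleles. On S129 the mean of Etv5 was 136.6 RPKM against 78.8 for Fgfr1, and on CAST it was 82.2 RPKM against 112 for Fgfr1. Dusp6 exceeded Etv4 on CAST in 4 of 4 libraries, but on S129 of replicate 4 it had 24.5 RPKM against 25.6.

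With exon length the order became Etv5, Fgf4, Dusp6, Etv4, Spry2, Spry4, Fgfr1, Fgfr2, Egr1 and Grb2, again in 4 of 4 libraries for each neighbouring pair. Etv5 then stood above Fgf4 with a log2 difference of 1.40 ± 0.039, whereas with the deposited values Fgf4 stood above Etv5 with one of 1.56 ± 0.039 (SD, n = 4 each). Fgfr1 moved from the third to the seventh place. Among 12258 protein-coding genes with at least 0.5 RPKM, 91.9% had a lower deposited level than Fgfr1, and 48.4% had a lower level per exon length. For Fgf4 these shares were 97.7% and 90.5%, and for Etv5 92.9% and 96.6%. The exons of Fgfr1 are 21.8 times and those of Fgf4 8.09 times as long as the length behind the value, a ratio larger than in 99.2% and 94.5% of these genes.

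The same pattern ran through the table. The length behind the RPKM was that of the first listed transcript for 87.0% of the genes above 0. Where the exons covered at most 1.2 times that length, the median of 3594 protein-coding genes was 5.11 RPKM, and where they covered more than 8 times that length, the median of 582 genes was 36.2 RPKM. Per exon length these medians were 4.80 and 2.39 RPKM. The median per exon length thus fell where the deposited one rose, so neither scale was even over these groups. Whether reads were counted over all exons or over 1 transcript is not given in the sources used here. Values of Fgf4 and Fgfr1 against other genes thus depend on the length, besides the density of SNPs. A comparison of the alleles of a gene does not depend on the length.

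**Figure D2:**
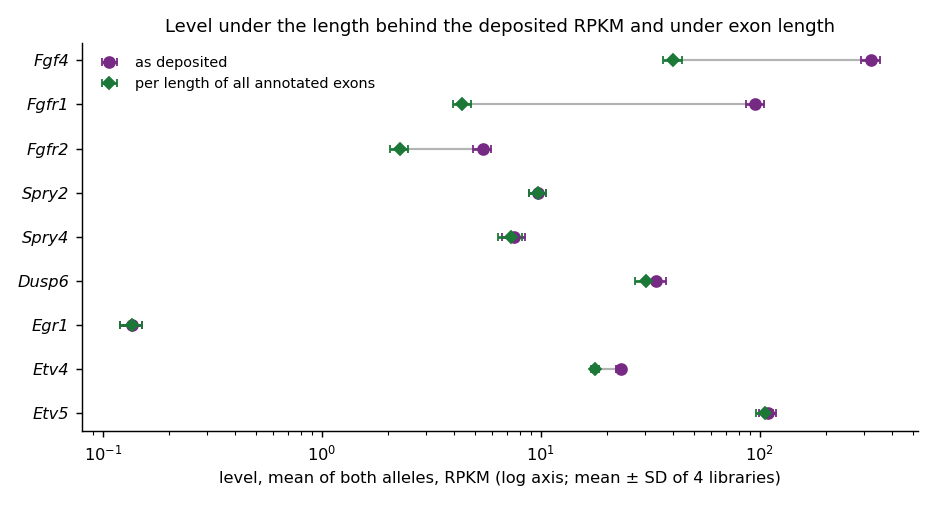
Level of 9 genes as the mean of both alleles in RPKM, on a log axis, with the deposited length (circles) and with the length of all annotated exons (diamonds). Points are means and bars the SD of 4 libraries. Fgf4 moves from 323.7 to 40.01 RPKM and Fgfr1 from 95.6 to 4.38 RPKM, while Spry2, Spry4, Dusp6, Egr1 and Etv5 stay close to their deposited level.

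The libraries differed slightly as a whole. The median deviation of 13341 genes from their mean over libraries was -0.027, 0.056, 0.076 and -0.095 in log2 in replicates 1 to 4. The SD of the members ranged from 0.067 for Etv4 to 0.18 for Grb2. With the median of each library taken out, it was 0.051 for Etv4, 0.052 for Etv5, 0.070 for Fgf4 and 0.13 for Spry4, against a median of 0.11 over all these genes. Counting error alone gives an SD of 0.010 for Etv5 and 0.27 for Egr1. The level of Spry4, lowest in replicate 1 and highest in replicate 3, varied most among the members with over 1000 reads.

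The comparison these libraries allow is that between the alleles. The log2 differences, S129 minus CAST, of the 4 libraries were tested against 0 by limma in 13341 genes, those whose means on both alleles summed to at least 1 RPKM. Adjusted p-values are by the Benjamini-Hochberg method over all of them. Of the 10 members, 8 passed this filter, while Egr1 and Grb2 did not. Over all genes, 62.7% were called at an adjusted p under 0.05, 31.4% higher on S129 and 31.3% higher on CAST. Of the 8 members 6 were called, which is near that background. Etv5, Spry2 and Etv4 were higher on S129, and Fgfr1, Fgfr2 and Dusp6 were higher on CAST. The median size of the difference was 0.42 for the 8 members and 0.29 for the 12869 autosomal genes tested. With the median of genes within 10 Mb taken out, as described below, these sizes were 0.28 and 0.26.

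On the S129 side, Etv5 differed most. Its difference was 0.73 (standard error 0.034, adjusted p = 0.000129 from limma), a 1.66-fold excess, and S129 held 63.3% ± 0.635 of its reads (SD, n = 4). Spry2 differed by 0.54 (standard error 0.058, adjusted p = 0.00177 from limma), a 1.45-fold excess with 60.2% ± 2.01 of the reads (SD, n = 4). Etv4 differed by 0.34 (standard error 0.034, adjusted p = 0.00135 from limma), a 1.27-fold excess with 56.8% ± 0.744 of the reads (SD, n = 4). All 3 were higher on S129 in 4 of 4 libraries.

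On the CAST side, Fgfr2 differed most, with -0.60 (standard error 0.040, adjusted p = 0.000372 from limma), a 1.52-fold excess of CAST. Fgfr1 differed by -0.51 (standard error 0.050, adjusted p = 0.00130 from limma), which is 1.42-fold. S129 held 40.4% ± 1.06 of the reads of Fgfr2 and 42.2% ± 1.63 of those of Fgfr1 (SD, n = 4 each). Dusp6 differed by -0.32 (standard error 0.061, adjusted p = 0.0111 from limma), or 1.24-fold. Among the called members it was the least even over the libraries, from -0.18 in replicate 1 to -0.50 in replicate 4, beside a counting SD of 0.044 for a library. All 3 were higher on CAST in 4 of 4 libraries, but the call of Dusp6 was lost without the pairing of alleles within libraries (adjusted p = 0.0548 from limma) and with columns rescaled to one autosomal sum (-0.21, adjusted p = 0.0614 from limma).

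Fgf4 and Spry4 were not called. Fgf4 differed by 0.061 (standard error 0.036, adjusted p = 0.208 from limma), with S129 higher in 3 of 4 libraries and 52.0% ± 0.851 of the reads (SD, n = 4). Rescaled to one autosomal sum, which shifts the median of all genes by 0.10 toward S129, its difference was 0.16 (adjusted p = 0.0413 from limma). Spry4 differed by -0.094 (standard error 0.070, adjusted p = 0.298 from limma), and by 0.0074 after rescaling. Replicate 2 had 45.7% S129 reads for Spry4, with an exact 95% Clopper-Pearson interval from 43.4% to 48.0%, whereas the other libraries had 49.3% to 52.2%. The log2 difference of Egr1 ran from -0.68 to 0.28 over the libraries, below the filter of the test.

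**Figure D3:**
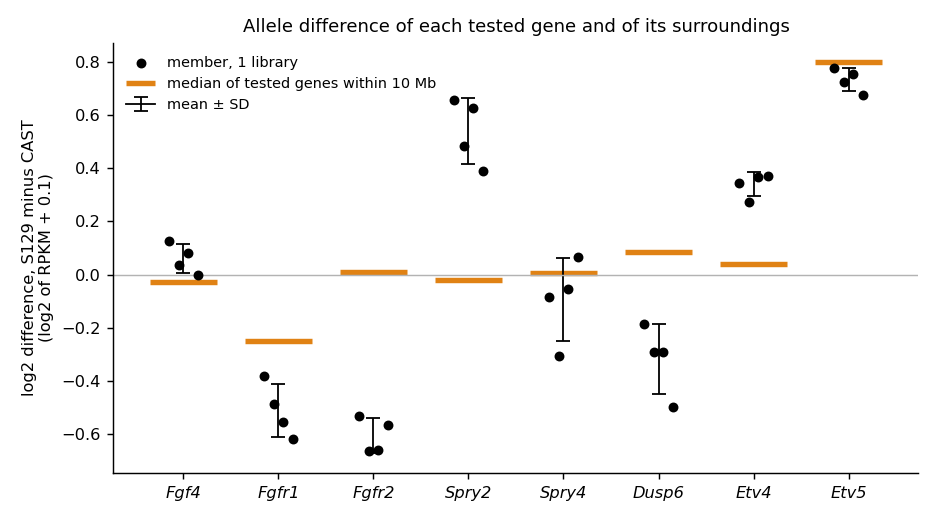
Allele difference, S129 minus CAST on the log2(RPKM+0.1) scale, of the 8 members tested. Black points are the 4 libraries, black bars the mean ± SD, and orange lines the median of all tested genes that start within 10 Mb. Etv5 lies at 0.73 beside an orange line at 0.80, whereas Spry2 at 0.54, Fgfr2 at -0.60 and Dusp6 at -0.32 lie far from lines near 0.

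Some of these chromosomes, or stretches of them, lean to one allele. The median difference was 0.68 on chromosome 16, which carries Etv5, and -0.23 on chromosome 8, which carries Fgfr1. Each member was therefore set beside the genes that start within 10 Mb of it. Around Etv5 the median difference of 154 genes was 0.80 ± 0.022 (SD, n = 4 libraries), and 139 of the other 153 were on the S129 side. Of those 153, 86 lay above Etv5 and 67 below. Relative to that median Etv5 differed by -0.065 (standard error 0.037, adjusted p = 0.196 from limma), and relative to the median of chromosome 16 by 0.055 (adjusted p = 0.226 from limma). The S129 excess of Etv5 was thus no larger than that of the genes around it.

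Around Fgfr1 the median of 86 genes was -0.25 ± 0.024 (SD, n = 4), in the same direction as the gene. Relative to it Fgfr1 still differed by -0.26 (standard error 0.049, adjusted p = 0.0115 from limma), below it in 4 of 4 libraries. Relative to the median of chromosome 8 Fgfr1 differed by -0.28 (adjusted p = 0.00980 from limma). The other called members differed from the median of their surroundings, and these medians lay between -0.019 for Spry2 and 0.086 for Dusp6. Relative to its surroundings Fgfr2 differed by -0.61 (adjusted p = 0.000436), Spry2 by 0.56 (adjusted p = 0.000953), Dusp6 by -0.40 (adjusted p = 0.00338) and Etv4 by 0.30 (adjusted p = 0.00254, all from limma). Some single neighbours leaned as far. Further to CAST than the member lay 10 of 153 neighbours of Fgfr2 (6.54%), 5 of 57 of Dusp6 (8.77%) and 18 of 85 of Fgfr1 (21.2%). Further to S129 than Etv4 lay 65 of its 267 neighbours (24.3%). Of the 8 members, 5 were called relative to their surroundings, 2 of them higher on S129 and 3 on CAST, against 57.1% of all genes, with 28.5% higher on S129 and 28.6% higher on CAST, and 56% of autosomal genes. Spry2 has just 23 tested neighbours within 10 Mb, 4 of them (17.4%) with a larger difference toward S129.

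**Figure D4:**
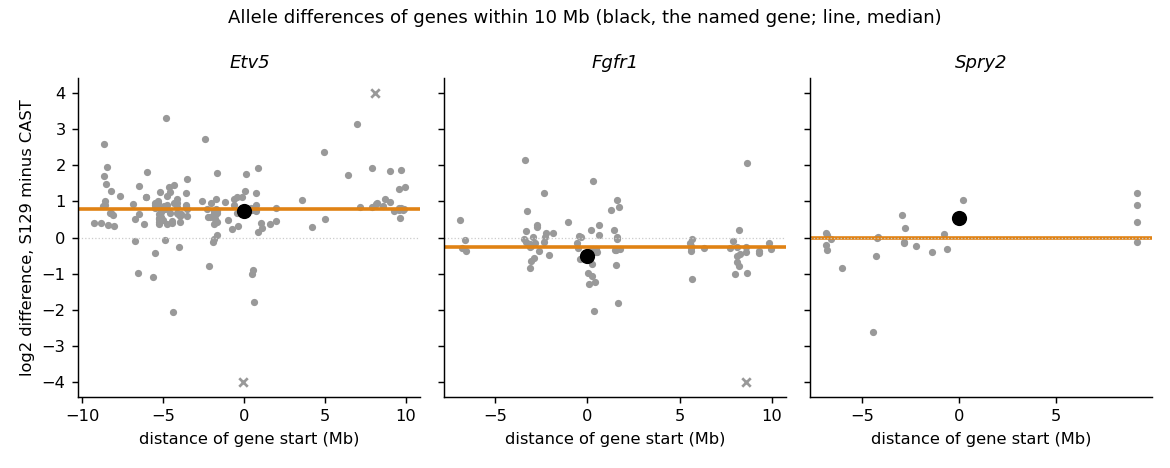
Allele difference, S129 minus CAST on the log2(RPKM+0.1) scale, of tested genes within 10 Mb of Etv5, Fgfr1 and Spry2 against the distance of their starts in Mb, as means of 4 libraries. The black point is the named gene, the orange line the median within 10 Mb, and crosses are genes beyond 4 on this scale. Etv5 lies at 0.73 among genes with a median of 0.80, Fgfr1 at -0.51 below a median of -0.25, and Spry2 at 0.54 above a median of -0.019.

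The rest of the pathway was described with a list of 90 further genes, arranged by role. All were listed in the table, 62 of them at 1 RPKM or above, and 68 passed the filter. Of the 63 autosomal genes tested, 10 were higher on S129, 28 were higher on CAST and 25 were not called, so that 60.3% were called against 61.4% of all autosomal genes, of which 28.9% were higher on S129 and 32.5% on CAST. Rescaled to one autosomal sum, 17 were higher on S129 and 25 on CAST, against 36.2% and 23.9% of all autosomal genes. Relative to the median within 10 Mb, 9 were higher on S129 and 23 on CAST, against 28% and 28.1% of all autosomal genes. The median size of the difference was 0.30, against 0.29 for all autosomal genes tested.

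Among the other ligands, Fgf8 had the highest level, at 2.00 ± 0.428 RPKM (SD, n = 4), and just 3 of 21 ligands reached 1 RPKM. No other ligand thus came within an order of magnitude of the value of Fgf4 on either scale, with SNP density not taken into account. Among the receptors and coreceptors, Klb, the beta-Klotho coreceptor of endocrine FGFs, was highest at 9.22 ± 0.852 RPKM (SD, n = 4). It was expressed almost entirely from CAST, with a difference of -4.17 (standard error 0.048, adjusted p = 2.47e-06 from limma) and 4.97% S129 reads. Fgfr3 had 1.27 RPKM, or 0.171 RPKM per exon length, and a difference of -2.33 (adjusted p = 0.00579 from limma). Fgfr4 and Fgfrl1, chosen after their values were seen, were not called, with differences of 0.44 (adjusted p = 0.0882 from limma) and -0.058 (adjusted p = 0.906 from limma). Thus 2 of the 4 genes of this role that were tested were higher on CAST and 2 were not called, or 50% called. Of all autosomal genes 61.4% were called, and 32.5% were higher on CAST.

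The genes for heparan sulphate synthesis were all above 1 RPKM (7 of 7), with the sulphotransferase gene Hs6st1 highest as deposited, at 19.1 ± 1.55 RPKM (SD, n = 4). Hs2st1, chosen after its value was seen, had 18.5 ± 1.91 RPKM (SD, n = 4), and per exon length it stood above Hs6st1 with 13.96 against 12.8 RPKM. Of these 7 genes 3 were called higher on CAST and 4 were not called, or 42.9% called against the 61.4% of all autosomal genes. Relative to their surroundings 3 were higher on CAST and 1 on S129, where 56% of all autosomal genes were called. All 13 genes for adaptors and Ras activation and all 12 of the kinase cascade were above 1 RPKM as well. Of the 13 adaptor genes 4 were higher on S129 and 7 on CAST, or 84.6% called against 61.4% of all autosomal genes. Of the 10 autosomal kinase cascade genes 2 were higher on S129 and 5 on CAST, or 70% called. Relative to their surroundings these counts were 3 and 5 for the adaptors and 1 and 6 for the kinase cascade. Fewer adaptors were thus called than without that step, and 56% of all autosomal genes were called on this scale. Frs3, a docking protein of FGF receptors, had 70.1 RPKM with a length of 344 bases, but 7.71 RPKM with the 3128 bases of its exons. Lamtor3, a scaffold for MEK and ERK, had 98.4 RPKM as deposited and 17.4 per exon length. Per exon length neither was the highest of its role. Lamtor3 differed by -1.46 (adjusted p = 1.90e-05 from limma), and by -0.73 relative to its surroundings on chromosome 3. Shc1, an adaptor on the same chromosome, differed by -1.20, and by -0.35 relative to its surroundings.

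The adaptor gene Crkl was chosen after its values were seen because it lies on chromosome 16 with Etv5. Its difference of 0.86 fell to 0.095 (adjusted p = 0.0739 from limma) relative to the genes around it.

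Among the feedback inhibitors, Dusp9, an X-linked ERK phosphatase, was highest at 50.8 ± 6.73 RPKM (SD, n = 4), above Dusp6. That level averages in the CAST column, although these male cells have no CAST X chromosome. On S129 alone the mean of Dusp9 was 101 RPKM. S129 held 99.7% of its reads, and all 5 X-linked genes tested were higher on S129, the strain of the only X chromosome of these male cells. Of the 14 autosomal feedback genes 3 were higher on S129 and 5 on CAST, or 57.1% called against 61.4% of all autosomal genes. Relative to their surroundings 3 were higher on S129 and 3 on CAST, where 56% of all autosomal genes were called. Among the transcription factor targets, Junb had the highest deposited level, at 97.1 RPKM, or 20.8 RPKM per exon length, where Ier2, chosen after its value was seen, stood higher with 61.8 RPKM. The difference of Junb was -0.29 (adjusted p = 0.00407 from limma), and -0.098 relative to its surroundings (adjusted p = 0.0709 from limma). Etv1, the third PEA3 factor beside Etv4 and Etv5, had 8.27 RPKM, or 1.26 RPKM per exon length, and, unlike them, was higher on CAST, with a difference of -1.23 (adjusted p = 0.000306 from limma). Ier3 and Spry3 were listed at 0.

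**Figure D5:**
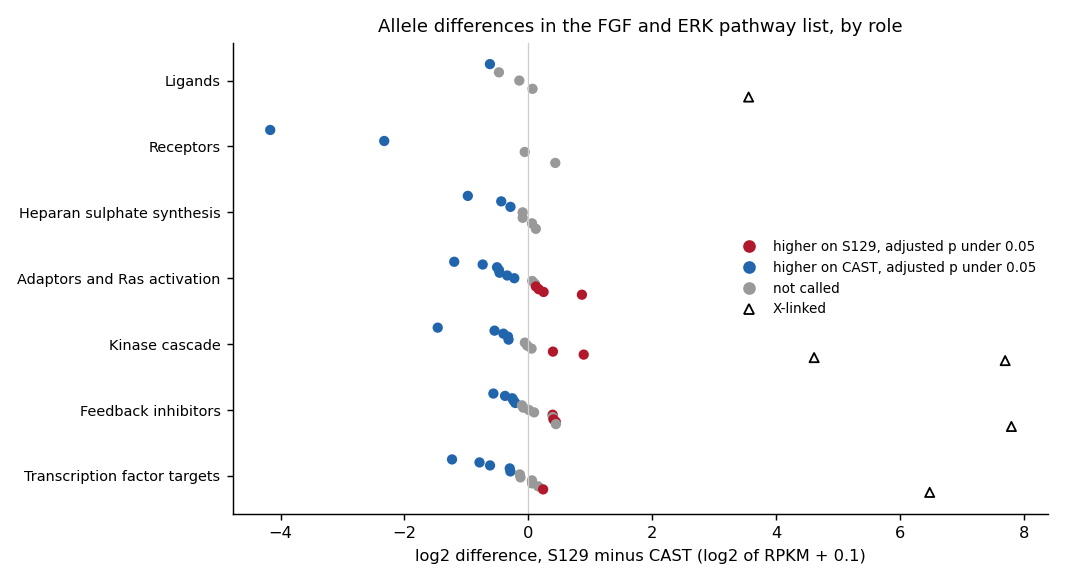
Allele difference, S129 minus CAST on the log2(RPKM+0.1) scale, of the 68 further pathway genes tested, arranged by role. Red points are autosomal genes called higher on S129, blue points those called higher on CAST, grey points those not called, and triangles X-linked genes. Most points lie within 1 of 0, Klb lies at -4.17, and all 5 triangles lie above 3.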

How the data were processed

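The authors removed ribosomal reads, trimmed with Trimmomatic 0.40, aligned with STAR to mm10 masked at strain SNPs, divided reads by SNPsplit and deposited RPKM per gene and allele for each library. They also deposited averages and log10 of the average plus 1, which were not used. The counting program and annotation are not given in the sources used here. Columns of other samples numbered 0.

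Genes were matched to GENCODE M21 by identifier (23995 of 24026). Reads and lengths were recovered from the steps between RPKM values (tolerance 0.02 reads). Alleles were compared with limma 3.58.1 (R 4.3.3), an intercept on within-library differences of log2(RPKM+0.1), filter 1 RPKM, Benjamini-Hochberg adjustment over all genes tested, threshold 0.05. Columns of one number are reads of one library, so pairing was kept. Their deviations had correlations of 0.105 to 0.195, against -0.155 to 0.140 for other pairs, and these ranges overlap. Copies were sought with BLAST 2.17.0. Reads carry no molecular identifiers, so intervals and limits describe counting error alone. Members and lists were chosen with earlier results of these data known. Named were all members and, per role of the list, the gene with the highest RPKM and autosomal genes called with a difference of at least 1. Scripts were tested on simulated data.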

Additional observations from a re-analysis of the deposited data

Results flagged for a closer look

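For each of the 10 genes, the level and the allele difference in 4 libraries, 20 quantities in all, were searched for a library that stands apart by Dixon's criterion. About 1 in 20 passes by chance, so 1 is to be anticipated here, and 1 was found. The allele difference of Grb2 was 0.20 on the log2(RPKM+0.1) scale in replicate 3 and -0.014 to 0 in the other libraries. It rests on 1 read of S129.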

How the results depend on the processing

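Of 112 allele differences of members recomputed under other settings, 106 gave the same direction and the same call. Relative to the median within 10 Mb the difference of Etv5 turned to -0.065 (adjusted p = 0.196 from limma), as its neighbours lean as far to S129, and after rescaling that of Spry4 turned to 0.0074, uncalled as before. Without the replicate block, which ignores that both alleles come from one library, Dusp6 kept its difference of -0.32 but was not called (adjusted p = 0.0548 from limma), and the block changed no other call of a member. Leaving the block out lowered the calls over all genes from 4187 to 3292 on S129 and from 4182 to 3133 on CAST. Rescaling moved these calls to 5121 on S129 and 3072 on CAST, and whole reads gave 4588 and 3672. In the pathway list, 17 autosomal genes were higher on S129 after rescaling, against 10, and 6 to 10 when a library was left out (6 without replicate 2). The median level over the 10 genes was 16.4 RPKM as deposited, 18.7 on S129 alone, 14.2 on CAST alone, 8.50 per exon length and 9.15 per longest transcript, the last chosen after seeing the data. Egr1 with 114 reads and Grb2 with 5 allow no statement on allele differences.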
